A study of Mus musculus with 11 samples.

Results

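Integrins and the proteins of the focal adhesion plaque were followed in the bulk liver transcriptome of 11 AMLN ob/ob-MASH mice. The set had 36 genes, chosen by name for their place in the adhesion machinery, with earlier results of these data known, of 46603 genes in the count table. It held 19 integrin chains, sorted by what they bind, and 17 plaque proteins, sorted by their place between the integrin tail and actin. All mice were male, leptin-deficient ob/ob animals that were 5 to 6 weeks old when the AMLN diet (high in trans-fat, fructose and cholesterol) began, and the diet was kept for 15 weeks before treatment and throughout it. For 8 weeks, 7 mice received vehicle (0.5% carboxymethyl cellulose) and 4 mice received INT-767 at 10 mg/kg, in each case by oral gavage once daily. INT-767 is a bile acid analog that activates both the farnesoid X receptor (FXR) and the membrane bile acid receptor TGR5. Every animal had undergone a liver biopsy before treatment and entered with a steatosis score of at least 2 and a fibrosis stage of at least 1, so the vehicle group was diseased and no lean or healthy liver served as a reference here. Whole-tissue RNA was sequenced, and each liver was 1 sample. The hepatocyte list, with albumin as its most abundant gene, summed to 62720 ± 5950 CPM (counts scaled to a common library size; SD, n = 7) with vehicle and 86344 ± 21105 CPM (SD, n = 4) with INT-767, and all 8 of its genes were detected.

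An integrin is a transmembrane heterodimer of an alpha and a beta chain that grips matrix or a counter-receptor outside the cell. Inside, talin and kindlin open the receptor, vinculin and alpha-actinin tie it to actin, and focal adhesion kinase (FAK), Src and paxillin relay the signal. In liver, hepatic stellate cells, sinusoidal endothelium, bile duct cells and leukocytes each carry their own integrin pairs, and the αv integrins of stellate cells are known for freeing latent TGF-β.

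Total gene counts ran from 7966963 to 15295230 in the vehicle livers (median 10878327) and from 7381211 to 16022459 in the INT-767 livers. Levels are given as CPM scaled by edgeR's TMM factors, and a gene was called when its adjusted p in edgeR's quasi-likelihood test over all 13880 tested genes fell under 0.05. The libraries also differed in how strongly long and GC-rich transcripts were represented. For this, each gene's log2 deviation from its mean over all livers was taken. The median for genes with transcripts of 4731 bases or more, minus that for genes with 2139 bases or less, was −0.25 in vehicle mouse 1. It was −0.21 in vehicle mouse 7 but between 0.16 and 0.49 in the other vehicle mice. It was −0.58 in INT-767 mouse 2 and −0.74 in INT-767 mouse 4, against 0.16 and 0.08 in INT-767 mice 1 and 3. The same difference between genes of 54.2% GC or more and of 44.6% or less was −0.57 in vehicle mouse 1 and −0.11 in vehicle mouse 7. In the other vehicle mice it was 0.02 to 0.57, and in INT-767 mice 1 to 4 it was −0.07, −0.49, −0.12 and −0.54. For the members, log2 deviations were taken from the vehicle mean, so a treatment difference is part of the INT-767 values. The median over the tested members was lowest in INT-767 mice 2 and 4, at −1.28 and −1.02, followed by −0.45 in vehicle mouse 1. It was −0.32 and −0.24 in INT-767 mice 1 and 3 and −0.20 in vehicle mouse 7. Results are therefore also given from a fit with an offset for GC content and transcript length in each library, and from a fit without the 4 libraries low in long transcripts (vehicle mice 1 and 7, INT-767 mice 2 and 4).

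Of the 36 members, 35 were tested, and 7 were lower with INT-767 while 0 were higher. *Itgam*, *Itgb2*, *Itga11* and *Itga6* among the integrin chains and *Src*, *Flna* and *Vasp* among the plaque proteins made up the 7. Without *Itga11*, which had at most 5 counts in an INT-767 liver, 6 of 34 were lower. The count ranged from 1 to 13 when 1 liver was left out: it was 13 without vehicle mouse 1 and 1 without vehicle mouse 5, vehicle mouse 6 or INT-767 mouse 2. With DESeq2 it was 12. The number called lower over all genes also moved, from 649 to 1370 without vehicle mouse 1 and to 1368 with DESeq2. In edgeR with all livers, the background was 4.68% of all tested genes called lower and 5.04% called higher. The log2 fold change (INT-767 over vehicle) was negative for 29 members and positive for 6, with a median of −0.75 over members and −0.01 over all tested genes. In 5 members every INT-767 liver was below every vehicle liver, an arrangement that 3.65% of all tested genes had, and without *Itga11* there were 4 such members. In 1 member, *Parva*, every INT-767 liver was above, as in 3.87% of all tested genes. With the offset, 8 members were called lower and 0 higher, against 5.97% and 7.71% of the 13835 genes in that fit, and the median moved to −0.45 (0.01 over all genes). Without the 4 libraries low in long transcripts, 9 members were called lower and 0 higher, against 6.12% and 5.96% of the 14363 genes tested there.

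Several members that were not called with all 11 livers passed in other fits. Without vehicle mouse 1, *Itgal*, *Itga3*, *Itgb4*, *Itga9*, *Tln2* and *Tns1* joined the 7, with an edgeR adjusted p of 0.0255 to 0.0406. Without INT-767 mouse 3, *Itga3* (log2 fold change −1.25, adjusted p = 0.0299) and *Itgb4* (−1.84, 0.0339) passed. *Itga2* (−2.33, 0.0237) was also under the threshold there, but the INT-767 livers left had 3, 0 and 4 counts of it, so it passed the filter on low counts only through its vehicle level and could show only a decrease. *Itgal* (−1.33, 0.0424) and *Itga9* (−1.31, 0.0464) passed without INT-767 mouse 1, and *Itga9* (−1.18, 0.0480) without vehicle mouse 7. Without the 4 libraries low in long transcripts, *Itgal* (−0.85, 0.0383), *Itga9* (−0.80, 0.0352), *Tln2* (−0.99, 0.0289) and *Tns1* (−0.94, 0.0406) passed, while *Itga11* and *Itga6* did not. With DESeq2, *Itgal*, *Itga3*, *Itgb4*, *Itga9* and *Tln2* were added, with an adjusted p of 0.0134 to 0.0373.

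**Figure D1:**
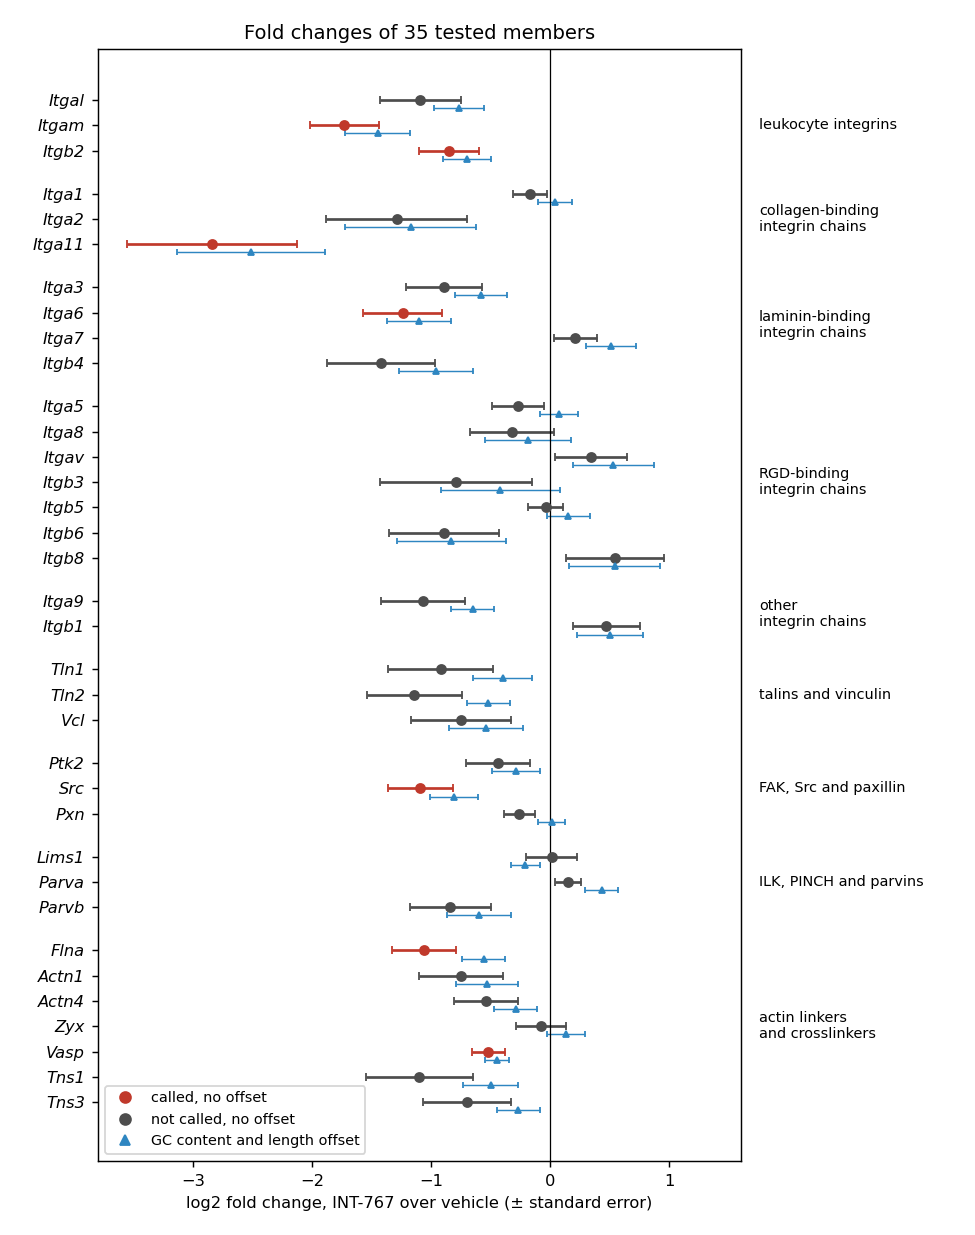
Log2 fold change of each tested member (horizontal axis, INT-767 over vehicle, bars ± standard error) by functional group, with circles for the fit without an offset (red where called) and blue triangles for the fit with the GC content and length offset. Circles lie mostly left of 0, with a median of −0.75, and the triangles are shifted to the right, with a median of −0.45.

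Of the 3 leukocyte integrin chains, 2 fell, with a median log2 fold change of −1.09. *Itgam* encodes the αM chain, which pairs with the product of *Itgb2* on monocytes, macrophages and neutrophils and binds complement fragments, fibrinogen and ICAM-1. The gene lies on chromosome 7 (chr7:128062640-128118491, plus strand, GRCm38). In the vehicle livers it ranged from 7.86 CPM in mouse 1 through a median of 11.4 to 15.6 CPM in mouse 6. In the INT-767 livers it was 3.62, 1.80, 2.68 and 5.02 CPM in mice 1 to 4. The groups did not overlap, and the highest INT-767 liver, mouse 4, was still under the lowest vehicle liver. Means were 11.2 ± 2.78 CPM (SD, n = 7) and 3.28 ± 1.38 CPM (SD, n = 4), a fitted level 3.32-fold lower with INT-767 (log2 fold change −1.73, SE 0.29, edgeR adjusted p = 0.00498). This was the only member under an adjusted p of 0.01, and it was called in each of the 11 fits that left out 1 liver. Another annotated locus on the same strand, *Gm49368*, covers 68.7% of the *Itgam* exon bases, and how shared reads were assigned is not stated in the methods read here.

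Because *Itgam* carried the strongest call, the 250 bases before its RefSeq start (GRCm38.p6, plus strand, chr7:128062390-128062639) are shown, with GAGGAA, the purine-rich core bound by the myeloid ETS factor PU.1, in capitals. It is found once as GAGGAA and once as TTCCTC, its reverse complement. Of all 32851 RefSeq windows of this length, 23.3% hold it on either strand, as do 32.3% of the 31 windows of the 26 members that matched, so its presence sets no member apart.
Itgam: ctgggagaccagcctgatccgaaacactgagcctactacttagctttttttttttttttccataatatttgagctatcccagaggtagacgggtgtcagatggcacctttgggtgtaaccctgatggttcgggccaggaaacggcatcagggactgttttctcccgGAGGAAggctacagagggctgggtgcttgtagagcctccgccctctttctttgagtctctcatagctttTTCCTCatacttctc

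*Itgb2*, the common β chain of the leukocyte integrins (chr10:77530252-77565708, plus strand), ran from 14.2 CPM in vehicle mouse 1 through a median of 22.4 to 33.1 CPM in vehicle mouse 6. With INT-767 it was 15.6, 7.88, 14.6 and 14.1 CPM. The groups overlapped through vehicle mouse 1, which lay under INT-767 mice 1 and 3, and only INT-767 mouse 2 stood far below the rest. The mean fell from 23.6 ± 6.47 to 13.1 ± 3.51 CPM (log2 fold change −0.85, SE 0.25, edgeR adjusted p = 0.0491). The call held without vehicle mouse 1 or INT-767 mouse 1 and was lost without any other single liver (adjusted p = 0.0583 to 0.165). It was also lost with limma-voom (adjusted p = 0.0564) and with no filter beyond 1 count (0.0620). *Itgal*, the αL chain of the lymphocyte receptor LFA-1, ranged from 11.9 to 32.6 CPM with vehicle (median 20.3) and was 14.4, 4.97, 13 and 7.87 CPM with INT-767. Its log2 fold change of −1.09 (SE 0.34, adjusted p = 0.0595) did not pass the test, although it did with the offset (−0.77, adjusted p = 0.0341).

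Within each liver, the ratio of *Itgam* to *Itgb2* counts also separated the groups. It was between 0.41 and 0.554 in the vehicle livers (median 0.471) and 0.232, 0.228, 0.183 and 0.356 in INT-767 mice 1 to 4. The ratio of *Itgal* to *Itgb2* counts did overlap, at 0.635 to 1.05 with vehicle and 0.923, 0.632, 0.885 and 0.559 with INT-767. These ratios were chosen after the values were seen and were not tested.

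**Figure D2:**
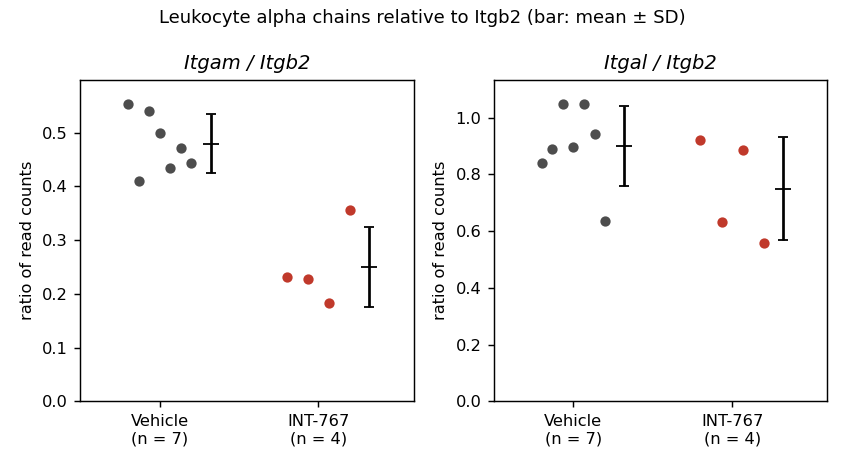
Ratio of *Itgam* to *Itgb2* counts and of *Itgal* to *Itgb2* counts in each liver (vertical axes, unitless), by treatment, with bars for the mean ± SD. All 4 INT-767 livers, at 0.183 to 0.356, sit under all 7 vehicle livers for *Itgam*, whereas the groups overlap for *Itgal*.

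Bulk tissue cannot tell fewer cells of a type from less RNA per cell, and markers of the cells that carry these integrins were read beside them. Of 8 macrophage markers, 2 fell and 0 rose, with a median log2 fold change of −1.04; *Csf1r*, the receptor for macrophage colony-stimulating factor, and the lysosomal *Cd68* were those that fell, *Csf1r* with a log2 fold change of −1.14 (SE 0.19, adjusted p = 0.00498). Log2 fold changes were negative for 7 of these markers and positive for 1, *Clec4f* (0.53, adjusted p = 0.384). *Cd5l*, the most abundant gene of that list, was at −0.03 (adjusted p = 0.947). The summed macrophage level ran from 519 to 725 CPM with vehicle and was 358, 367, 290 and 713 CPM in INT-767 mice 1 to 4. So 3 of the 4 treated livers were below the vehicle range. In INT-767 mouse 4, *Cd5l* was 404 CPM and *Clec4f* 150 CPM, against at most 283 and 74.4 CPM with vehicle. Only 3 of 8 neutrophil markers were tested, with a median log2 fold change of 0.31. Of these, 1 fell, the growth factor receptor *Csf3r* (−1.49), while *S100a8* (0.31) and *S100a9* (0.46) were not called. *Ly6g*, *Mpo*, *Elane* and *Retnlg* had under 10 counts in each liver. The sum of that list was 11.1 to 17.3 CPM with vehicle and 8.26, 8.71, 4.22 and 29.1 CPM with INT-767. *Csf3r* was its most abundant gene with vehicle, at a mean of 5.88 CPM, and *S100a9* with INT-767, at a mean of 5.48 CPM that rests on 15.7 CPM in mouse 4. Among 6 tested lymphocyte markers of 8, 0 were called (median −0.51), and their sum of 4.11 to 15.8 CPM with vehicle overlapped the 4.00 to 7.79 CPM with INT-767. Their part in the leukocyte integrin levels was not tested.

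Among the collagen-binding chains, 1 of 3 fell. *Itga11*, the α chain of a fibrillar collagen receptor of fibroblasts and myofibroblasts (chr9:62677826-62783982, plus strand), ran from 0.513 CPM in vehicle mouse 2 through a median of 0.936 to 3.05 CPM in vehicle mouse 5. With INT-767 it was 0.318, 0.00, 0.282 and 0.0749 CPM. The groups did not overlap, but the levels rest on 7 to 42 counts per vehicle liver and 0 to 5 counts per INT-767 liver. The log2 fold change was −2.84 (SE 0.71, edgeR adjusted p = 0.0288), and the gene passed the filter on low counts only through its vehicle level, so a decrease was the only direction it could show. It was tested in 7 of the 11 fits that left out 1 liver, and the call was lost without vehicle mouse 4 (adjusted p = 0.0504), INT-767 mouse 2 (0.0961) or INT-767 mouse 4 (0.0757). Without the 4 libraries low in long transcripts it was −2.34 (adjusted p = 0.0611). *Itga1*, which prefers basement membrane collagen and is abundant on stellate and endothelial cells, was close to level at 28.7 ± 3.76 and 25.5 ± 2.18 CPM (log2 fold change −0.17, SE 0.14, adjusted p = 0.397). *Itga2*, its epithelial and platelet counterpart, was near the detection limit in both groups, at 0.998 ± 0.258 and 0.439 ± 0.566 CPM (adjusted p = 0.149).

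The window before the RefSeq start of *Itga11* (GRCm38.p6, plus strand, chr9:62677605-62677854), the member with the largest log2 fold change, holds GAGGAA once, as its reverse complement TTCCTC in capitals.
Itga11: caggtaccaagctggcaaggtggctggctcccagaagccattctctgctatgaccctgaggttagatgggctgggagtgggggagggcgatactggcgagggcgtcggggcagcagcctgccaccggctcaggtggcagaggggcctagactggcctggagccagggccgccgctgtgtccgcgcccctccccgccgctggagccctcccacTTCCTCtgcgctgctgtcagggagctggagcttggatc

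Of 8 myofibroblast markers, 2 fell, *Col1a1* (log2 fold change −2.96, adjusted p = 0.0297) and *Loxl2* (−1.63), and the list's median was −0.97. Its sum, led by *Col3a1*, was 278 to 924 CPM with vehicle and 156, 70.8, 187 and 263 CPM with INT-767, with no overlap. Of 8 markers of quiescent stellate cells, 1 fell, *Pdgfrb* (−1.31, adjusted p = 0.0302), and the list's median was −0.17. Log2 fold changes were negative for 4 of these markers and positive for 4. Their sum overlapped at 276 to 539 CPM and 399, 283, 331 and 356 CPM, with *Reln* the most abundant with vehicle and *Rgs5* with INT-767. The part of these cells in the *Itga11* level was not tested.

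Of the 4 laminin-binding chains, which hold epithelial and endothelial cells to the basement membrane, 1 fell. *Itga6* (chr2:71745616-71858416, plus strand), the α chain that joins either the product of *Itgb1* or that of *Itgb4*, ran from 15.5 CPM in vehicle mouse 1 through a median of 17.7 to 22.7 CPM in vehicle mouse 2. In INT-767 mice 1 to 4 it was 15.2, 3.32, 7.32 and 4.80 CPM. INT-767 mouse 1 lay just under the lowest vehicle liver and the other 3 far below, so the groups did not overlap. The mean dropped from 18.4 ± 2.73 to 7.67 ± 5.32 CPM (log2 fold change −1.24, SE 0.33, edgeR adjusted p = 0.0369). The call held with the offset (−1.10, adjusted p = 0.0200) but not without the 4 libraries low in long transcripts (−0.71, adjusted p = 0.0773). Leaving out 1 liver kept it only for vehicle mouse 1, vehicle mouse 7 or INT-767 mouse 1, and the adjusted p was 0.0593 to 0.120 without any other. *Itgb4*, the hemidesmosomal β chain of epithelia, was 5.98 ± 2.86 and 2.28 ± 1.33 CPM (log2 fold change −1.42, SE 0.45, adjusted p = 0.0619). *Itga3*, found mainly on epithelium, was 18.9 ± 4.85 and 10.2 ± 5.59 CPM (−0.89, SE 0.32, adjusted p = 0.0856). Neither passed the test, and neither did *Itga7*, the muscle-type laminin receptor chain, which was 12.3 ± 0.985 and 14.2 ± 4.39 CPM (0.21, adjusted p = 0.404).

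Cholangiocytes and sinusoidal endothelium, which carry laminin receptors, had 0 called markers of 7 and of 8. Cholangiocyte markers, led by *Tspan8*, summed to 75.4 to 170 CPM with vehicle and 52.2, 56.1, 90.8 and 121 CPM with INT-767 (median log2 fold change −0.61). Endothelial markers summed to 136 to 363 CPM and 220, 137, 181 and 114 CPM (median −0.37), with *Stab1* the most abundant with vehicle and *Stab2* with INT-767. Their part in the *Itga6* level was not tested.

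None of the 7 chains of the RGD-binding integrins, which recognise fibronectin, vitronectin and latent TGF-β, was called in either direction. Their median log2 fold change of −0.27 was the smallest in size among the named ligand classes. The collagen-binding median of −1.29 was that of *Itga2*, near the detection limit, and *Itga1* in that class was at −0.17. *Itgav*, the shared αv chain, was 58.3 ± 20.6 and 73.6 ± 35.9 CPM (log2 fold change 0.34, SE 0.30, adjusted p = 0.422), with the highest INT-767 liver, mouse 4 at 126 CPM, above the highest vehicle liver, mouse 1 at 98.9 CPM. *Itgb5*, a β partner of αv that binds vitronectin, was 130 ± 16.2 and 126 ± 22.9 CPM (−0.04, SE 0.15, adjusted p = 0.847). *Itgb6* and *Itgb8*, the epithelial and mesenchymal chains known for activating TGF-β with αv, had log2 fold changes of −0.89 (SE 0.46, adjusted p = 0.187) and 0.54 (SE 0.41, adjusted p = 0.348). The spread was wide in both: *Itgb6* was 0.635, 1.24, 2.68 and 4.42 CPM in INT-767 mice 1 to 4 against 2.39 to 6.59 CPM with vehicle. *Itgb3*, the chain of platelets and osteoclasts, was 4.91 ± 3.24 and 2.81 ± 1.92 CPM (adjusted p = 0.381). *Itga5*, the fibronectin receptor chain, and *Itga8*, a marker of stellate and other mesenchymal cells, had log2 fold changes of −0.27 (SE 0.22, adjusted p = 0.404) and −0.32 (SE 0.35, adjusted p = 0.530). A missed threshold at these standard errors does not show that levels were the same.

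*Itgb1*, the β chain shared by most matrix receptors, was the most abundant member per length, at 77.3 ± 28.4 CPM per kb of merged exons with vehicle. It ran from 225 CPM in vehicle mouse 5 through a median of 265 to 529 CPM in vehicle mouse 1, and was 308, 472, 312 and 650 CPM with INT-767. All INT-767 livers were above the vehicle median, but vehicle mouse 1 was above 3 of them, and the log2 fold change of 0.47 (SE 0.28, adjusted p = 0.256) did not pass. *Itga9*, which binds tenascin and osteopontin, went from 38.6 ± 14.3 to 18.3 ± 8.57 CPM (−1.07, SE 0.35, adjusted p = 0.0683), and passed with the offset (−0.65, adjusted p = 0.0308). Over all 19 integrin chains, 4 fell and 0 rose with a median log2 fold change of −0.85.

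**Figure D3:**
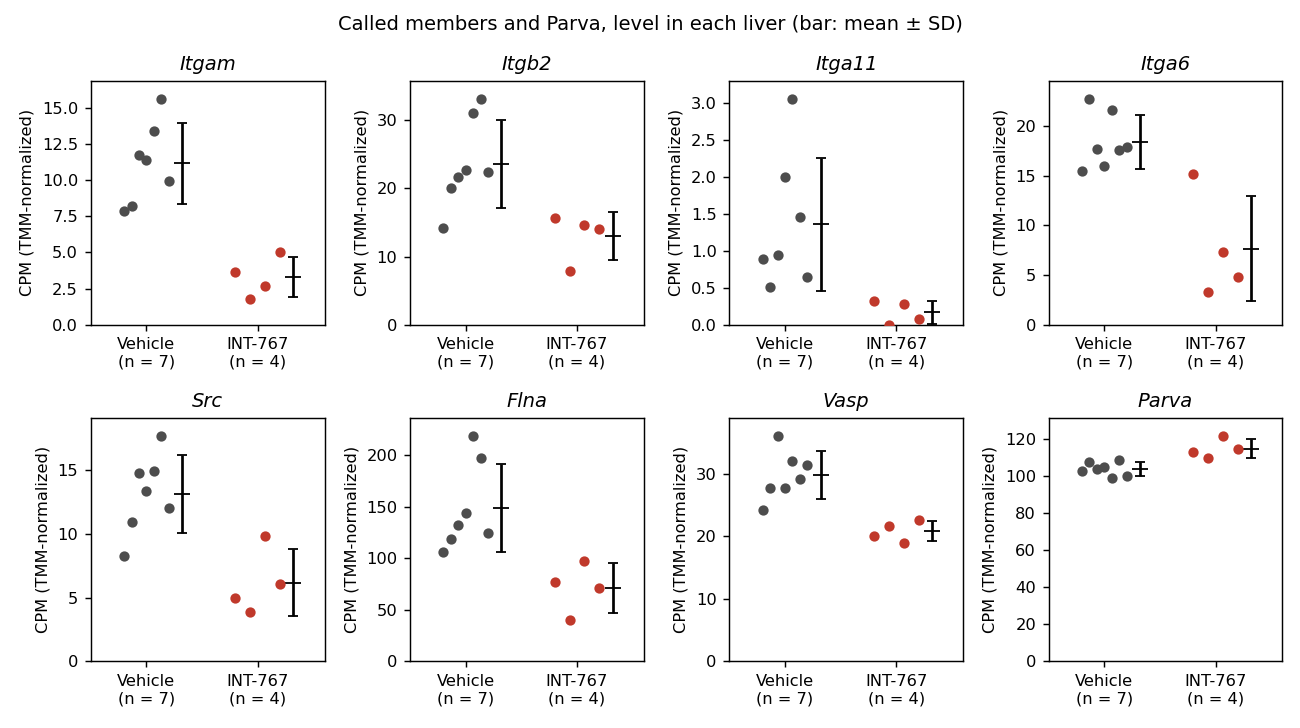
TMM-scaled CPM (vertical axes) of the 7 called members and *Parva* by treatment, with 1 point per liver and bars for the mean ± SD (n = 7 and n = 4). *Itgam*, *Itga11*, *Itga6*, *Flna* and *Vasp* have all 4 INT-767 livers under all 7 vehicle livers.

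In the plaque, 3 of 16 tested proteins of 17 fell and 0 rose, with a median log2 fold change of −0.73. *Tln1*, *Tln2* and *Vcl*, the talins and vinculin that couple integrin tails to actin, had negative log2 fold changes that did not pass: −0.92 (SE 0.44, adjusted p = 0.162), −1.14 (SE 0.40, adjusted p = 0.0813) and −0.75 (SE 0.42, adjusted p = 0.218). *Tln1* varied strongly inside both groups, from 39.4 CPM in vehicle mouse 1 to 170 CPM in vehicle mouse 6, and 100, 38.6, 75.7 and 26.4 CPM with INT-767. The lowest livers were 3 of those low in long transcripts, and the *Tln1* log2 fold change shrank to −0.40 with the offset. An opposite-strand gene, *Ap3m1*, covers 25.5% of the *Vcl* exon bases, and whether counting used strand is not stated in the methods read here.

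*Vcl* is a textbook target of serum response factor (SRF), the factor that reads actin polymerisation, and its window before the RefSeq start (GRCm38.p6, plus strand, chr14:20929148-20929397) holds a CArG box, SRF's binding motif, in capitals. A CArG box was in 1.47% of all 32851 windows and in 2 of the 31 member windows, those of *Vcl* and *Itgb6*, neither of which was called.
Vcl: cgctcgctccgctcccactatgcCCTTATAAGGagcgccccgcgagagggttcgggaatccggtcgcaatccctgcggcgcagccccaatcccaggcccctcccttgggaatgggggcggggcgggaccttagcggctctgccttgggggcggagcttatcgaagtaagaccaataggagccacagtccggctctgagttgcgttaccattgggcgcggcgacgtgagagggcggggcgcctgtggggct

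Of the signalling kinases and their scaffold, 1 of 3 fell. *Src* (chr2:157418444-157471862, plus strand), the tyrosine kinase that docks on phosphorylated FAK, ranged from 8.24 CPM in vehicle mouse 1 through a median of 13.4 to 17.7 CPM in vehicle mouse 6, and was 4.96, 3.87, 9.86 and 6.07 CPM with INT-767. The groups overlapped only through INT-767 mouse 3, which was above vehicle mouse 1. Means were 13.1 ± 3.07 and 6.19 ± 2.61 CPM (log2 fold change −1.09, SE 0.27, edgeR adjusted p = 0.0273). The call held with the offset (−0.81, adjusted p = 0.0206) and without the 4 libraries low in long transcripts (−1.0, adjusted p = 0.0341). It was lost without vehicle mouse 5 (0.0539), vehicle mouse 6 (0.0565), INT-767 mouse 2 (0.108) or INT-767 mouse 4 (0.0594), the values being adjusted p. *Ptk2*, which encodes FAK, was 26.5 ± 6.60 and 19.6 ± 7.69 CPM (−0.44, SE 0.27, adjusted p = 0.267). *Pxn*, the paxillin scaffold, was 57.8 ± 6.34 and 48.3 ± 2.76 CPM (−0.26, SE 0.13, adjusted p = 0.168), and with the offset its log2 fold change was 0.01.

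In the ILK, PINCH and parvin complex, which links β chains to actin and to growth factor signals, 0 of 3 tested members were called and the median log2 fold change was 0.01. *Ilk* itself (chr7:105736592-105742925, plus strand) had 10 counts over all 11 livers, 0 to 2 in each, and was not tested. The opposite-strand genes *Rrp8* and *Taf10* cover 89.7% of its exon bases, and their part in this low count was not tested. *Parva*, the widely expressed parvin, was 99.1 to 109 CPM with vehicle (median 104) and 113, 110, 122 and 115 CPM with INT-767. All 4 INT-767 livers were above the vehicle range, yet the log2 fold change was 0.15 (SE 0.11, adjusted p = 0.333) and it turned to −0.06 when counts were scaled by library size alone. *Lims1*, which encodes PINCH, was 39.6 ± 11.1 and 39.8 ± 7.35 CPM (0.01, adjusted p = 0.978). *Parvb* was 6.24 ± 2.06 and 3.51 ± 1.77 CPM (−0.84, SE 0.34, adjusted p = 0.116).

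All 7 actin linkers and crosslinkers had negative log2 fold changes, and 2 passed. *Flna*, which encodes filamin A, the actin crosslinker that also binds integrin β tails (chrX:74223461-74249820, minus strand), ran from 106 CPM in vehicle mouse 1 through a median of 132 to 219 CPM in vehicle mouse 5, and was 76.8, 39.9, 97.9 and 71.0 CPM with INT-767. No INT-767 liver reached the vehicle range. The mean went from 149 ± 42.6 to 71.4 ± 23.9 CPM (log2 fold change −1.06, SE 0.27, edgeR adjusted p = 0.0295). The offset took it to −0.56 (adjusted p = 0.0581), so this call depends on how transcript length and GC content are treated. It held with an offset for GC content alone (−0.89, adjusted p = 0.0237) or for length alone (−0.75, adjusted p = 0.03). Without the 4 libraries low in long transcripts the log2 fold change was −0.89 (adjusted p = 0.0359). Leaving out vehicle mouse 4, 5 or 6 or INT-767 mouse 2 or 4 also ended the call, with an adjusted p of 0.0502 to 0.102. *Vasp*, the actin polymerase-like protein that sits at the tips of adhesions and stress fibres (chr7:19256929-19271817, minus strand), was 24.3 to 36.1 CPM with vehicle (median 29.2) and 20.1, 21.7, 19.0 and 22.6 CPM with INT-767. The treated livers were tightly grouped below the vehicle range. Means were 29.8 ± 3.78 and 20.8 ± 1.59 CPM (log2 fold change −0.52, SE 0.14, edgeR adjusted p = 0.0353). The *Vasp* call held with the offset (−0.45, adjusted p = 0.0162), but not with an offset for GC content alone (−0.31, adjusted p = 0.111) or with no filter beyond 1 count (adjusted p = 0.0997). It held without vehicle mouse 1, vehicle mouse 2 or INT-767 mouse 4 and was lost without any other single liver (adjusted p = 0.0505 to 0.105).

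Among the 26 members with a RefSeq window, *Flna* was the only called one with CATTCC, the core of the TEAD motif through which YAP acts. The window (GRCm38.p6, minus strand, chrX:74246535-74246784) is shown with the motif in capitals. It precedes the RefSeq start but lies inside the gene span given above, which comes from another annotation. On either strand CATTCC is in 12.6% of all windows and 12.9% of member windows, and the match is a description only.
Flna: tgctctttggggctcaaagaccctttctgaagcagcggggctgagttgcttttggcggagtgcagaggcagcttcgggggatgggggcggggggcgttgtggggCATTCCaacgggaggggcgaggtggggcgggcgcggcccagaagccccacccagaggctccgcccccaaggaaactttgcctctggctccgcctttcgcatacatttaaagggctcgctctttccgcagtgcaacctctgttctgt

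With all 11 livers, the other 5 linkers did not pass. *Tns1*, a tensin of fibrillar adhesions, had the widest range in CPM, from 115 in vehicle mouse 1 to 525 in vehicle mouse 6, with 213, 83.7, 224 and 111 CPM for INT-767 (log2 fold change −1.10, SE 0.45, adjusted p = 0.113). *Tns3*, *Actn1* and *Actn4*, a second tensin and the non-muscle α-actinins, had log2 fold changes of −0.70 (SE 0.37), −0.75 (SE 0.35) and −0.54 (SE 0.27), with adjusted p of 0.193, 0.156 and 0.176. *Zyx*, the tension-sensing LIM protein zyxin, was 47.0 ± 12.1 and 44.4 ± 8.98 CPM (−0.08, SE 0.21, adjusted p = 0.795).

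**Figure D4:**
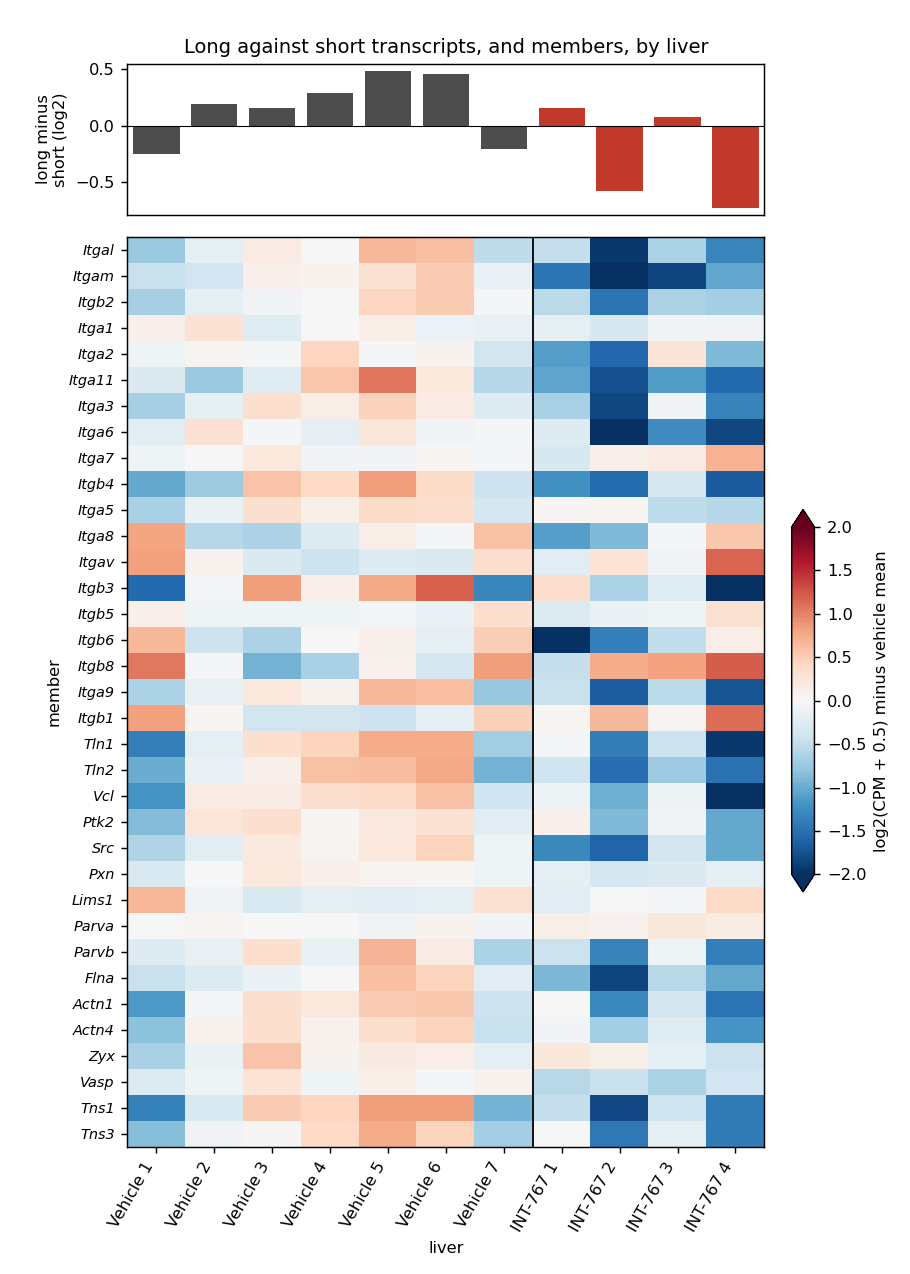
Lower panel, log2(CPM + 0.5) of each tested member (rows) minus its vehicle mean, in each liver (columns, blue lower and red higher); upper panel, bars of the long-minus-short transcript difference (log2) of the same liver. INT-767 mice 2 and 4, at −0.58 and −0.74 in the upper panel, are blue in many rows, while *Itgb1*, *Itgav* and *Itgb8* are red there.

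The wider adhesion pathway was read from 4 lists, beside 4.68% of all tested genes called lower and 5.04% called higher. Of 6 tested integrin chains outside the members, 0 were called (median log2 fold change −0.46), among them *Itgax*, the dendritic cell and macrophage chain, at 17.0 ± 6.06 and 7.17 ± 5.43 CPM (−1.23, SE 0.46, adjusted p = 0.0984). *Itga4*, a lymphocyte and monocyte chain, and *Itga2b*, the platelet chain, had log2 fold changes of −0.46 (adjusted p = 0.134) and −0.45 (adjusted p = 0.209). Of 41 tested plaque proteins outside the members, 7 fell and 0 rose (median −0.57). *Nedd9*, a docking protein of the Cas family, went from 16.5 ± 1.84 to 7.70 ± 2.08 CPM (−1.09, SE 0.18, adjusted p = 0.00566). *Fermt3*, the kindlin of blood cells that activates the *Itgb2* product, went from 12.5 ± 2.82 to 6.35 ± 1.67 CPM (−0.96, SE 0.22, adjusted p = 0.0227). *Iqgap1*, *Fblim1* and *Evl*, a scaffold of the cell cortex, a filamin partner and a relative of *Vasp*, also fell, by 1.09, 1.27 and 0.87 on the log2 scale. Abundant genes of that list that were not called included the adaptor *Crk* (0.73, SE 0.30, adjusted p = 0.118) and the zyxin relative *Lpp* (0.07, SE 0.19, adjusted p = 0.797).

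Of 30 integrin ligands, 10 fell and 0 rose, with a median log2 fold change of −0.94 (−0.60 with the offset, with 8 called). Over all tested genes, 4.68% were called lower, and 5.97% with the offset. The study had already reported several of these ligands as lower in these livers, *Col4a1* and *Lama5* among them. The list was therefore not chosen independently of these data. *Icam1*, the counter-receptor of the leukocyte integrins, fell from 29.8 ± 5.02 to 17.0 ± 2.06 CPM (−0.80, SE 0.16, adjusted p = 0.0130). *Thbs1*, which encodes thrombospondin-1, fell by 1.23 on the log2 scale (SE 0.25, adjusted p = 0.0122), a call that was lost with the offset (−0.82, adjusted p = 0.0685). *Col4a1* and *Lama5*, basement membrane ligands of the collagen and laminin receptors, fell by 1.29 (SE 0.30) and 1.78 (SE 0.43), and *Col1a2*, a fibrillar collagen chain, fell by 2.35 (SE 0.57). The fibrinogen genes *Fga*, *Fgb* and *Fgg*, made by hepatocytes, had log2 fold changes of −0.18, 0.17 and 0.11 with adjusted p of 0.614, 0.614 and 0.737. Of 15 tested SRF and YAP target genes, which respond to actin tension, 5 fell and 0 rose (median −0.56). They included *Ankrd1* (−2.10, SE 0.33, adjusted p = 0.0045), *Ajuba* (−1.23, SE 0.20, adjusted p = 0.0045), the kinase receptor *Axl* (−0.87, SE 0.16, adjusted p = 0.00818), *Ccn2*, connective tissue growth factor, which went from 47.2 ± 5.48 to 23.8 ± 7.87 CPM (−0.99, SE 0.20, adjusted p = 0.0129) and *Tpm1*, a tropomyosin (−0.64, SE 0.16, adjusted p = 0.0298). *Actb*, cytoplasmic β-actin, was at −0.47 (adjusted p = 0.0845), *Cald1*, caldesmon, at 0.02 (adjusted p = 0.935) and *Amotl2*, an angiomotin, at −0.56 (adjusted p = 0.204). *Acta2* (−0.63, adjusted p = 0.173), *Tagln* (−0.31, adjusted p = 0.281) and *Tpm2* (0.95, adjusted p = 0.103) were not called either. Log2 fold changes in that list were negative for 13 genes and positive for 2.

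Per kb of merged exons, with vehicle, *Itgb1* (77.3 ± 28.4 CPM per kb) was followed by *Itgb5* at 36.5 ± 4.57, *Actn4* at 26.9 ± 7.57, *Tns1* at 21.2 ± 10.6 and *Flna* at 15.8 ± 4.53 CPM per kb. From *Itgb5* down, each of these neighbours differed from the next by less than the sum of their SDs. Divided by the longest transcript instead, *Itgb1* stayed first at 82.6 CPM per kb, but *Actn4* at 42.5 passed *Itgb5* at 39.5, and *Parva* at 17.7 passed *Flna* at 17.6 CPM per kb. At the low end, again per kb of merged exons, were *Itgb6* at 0.589, *Itga11* at 0.264 and *Itga2* at 0.140 CPM per kb, with *Ilk* last at 0.0342 CPM per kb.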

How the data were processed

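Liver RNA was sequenced from 11 mice. Per the submitters' processing notes the authors aligned reads with STAR 2.4.0 to GRCm38, with Ensembl release 84, and the deposited values are raw counts per gene. The supplementary methods name another STAR version. For the counting program and its strand setting, nothing is stated in the methods or labels. The 1 table was used whole, and 0 per-sample columns and 0 rows without a gene were left out.

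Genes were filtered with filterByExpr (minimum count 10, minimum total 15), scaled with TMM and tested with robust quasi-likelihood fits in edgeR 4.0.16 (limma 3.58.1, R 4.3.3), with Benjamini-Hochberg adjustment over 13880 genes. The fit held only treatment, and mice were the replicates, so p-values measure the spread between mice. Levels are TMM-scaled CPM, and CPM per kb divides by the length of a gene's merged exons. Plots were made in Python 3.11.15 with matplotlib 3.10.9. The steps were tested on simulated data.

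Alternatives were DESeq2 1.42.0, limma-voom, other scalings and filters, a stricter threshold, a replicate block, leaving out each liver, and an offset for GC content and length (lowess, span 0.3, 13835 genes). Offsets for GC or length alone, the block with the offset and the fit without 4 libraries were chosen after seeing the data. Libraries were checked for copies: the smallest median chi-square per gene between any pair was 1.11.

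Members and gene lists were chosen with earlier results of these data known. All members are accounted for. Outside them, the genes named were up to 5 called genes with the lowest adjusted p in each pathway list and up to 3 uncalled genes with the highest mean CPM, and a few more were named after their values were seen. Some genes that this rule selects are not reported here. *Ccn1* and *Ccn2* were matched by annotation identifier. Gene positions and lengths come from GENCODE M21, and the 250-base windows before gene starts from RefSeq (GRCm38.p6), with 26 members matched and 10 not. The motifs GAGGAA and CATTCC and the windows shown were chosen after the values were seen. Other data of the study were not analysed here.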

Additional observations from a re-analysis of the deposited data

Results flagged for a closer look

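Of 146 groups of livers examined for a sample far from the rest, 3 were marked, and chance alone marks about 1 group in 20. *Itga7* was 14.3 CPM in vehicle mouse 3, with the nearest vehicle liver at 12.6 CPM, a gap of 0.631 of the group's range. The summed neutrophil markers were 11.1 CPM in vehicle mouse 2, with the nearest vehicle liver at 14.8 CPM (0.602 of the range). *Axl* was 31.4 CPM in INT-767 mouse 2, with the nearest INT-767 liver at 39.4 CPM (0.830 of the range).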

How the results depend on the processing

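The number of members called lower (7) was 12 with DESeq2 and 1 at a threshold of 0.01, and ranged from 1 to 13 over the fits leaving out 1 liver: 13 without vehicle mouse 1, and 1 without vehicle mouse 5, vehicle mouse 6 or INT-767 mouse 2. Over all genes, 649 lower and 700 higher became 1026 and 331 with library size only, 1368 and 1443 with DESeq2, and 87 and 158 at 0.01, with 1067 higher under the offset. Leaving out 1 liver gave 110 to 1370 lower and 164 to 1906 higher. With the replicate block, 0 members and 0 genes were called in either direction, with and without the offset. A term for each replicate number leaves few degrees of freedom, so the lack of calls there decides little. The member median was −0.67 with the block alone and −0.37 with block and offset. The labels do not say whether livers with the same number share anything. Deviations of same-numbered livers correlated at −0.67, 0.19, 0.12 and −0.47. These values do not settle it, since trends across whole libraries also enter the deviations. The member median was −0.45 with the offset and −0.96 to −0.57 leaving out 1 liver.

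The sign of the log2 fold change turned for members that were not called. With library size only it was −0.01 for *Itga7*, −0.20 for *Lims1* and −0.06 for *Parva*. *Lims1* was −0.08 with upper-quartile factors and −0.06 for genes with 10 counts in every liver. With the GC and length offset it was 0.04 for *Itga1*, 0.07 for *Itga5*, 0.15 for *Itgb5*, 0.01 for *Pxn*, −0.21 for *Lims1* and 0.13 for *Zyx*. With GC alone it was 0.14 for *Itgb5*, −0.30 for *Lims1* and 0.14 for *Zyx*, and with length alone 0.22 for *Itga1* and 0.00046 for *Itgb5*. With block and offset it was 0.07 for *Itga5*, 0.15 for *Itgb5*, −0.22 for *Lims1* and 0.11 for *Zyx*. Without the 4 libraries low in long transcripts *Itga7* was −0.10. Leaving out 1 liver gave −0.13 to 0.15 for *Lims1*, −0.18 to 0.03 for *Zyx*, −0.18 to 0.04 for *Itgb5*, −0.02 to 0.37 for *Itga7* and −0.06 to 0.52 for *Itgav*. The causes were not tested. Groups of 7 and 4 livers limit the calls, and *Itga11* and *Itga2* are further limited by low counts.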

Other observations

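Lists for cells with little part in the comparisons above gave few calls. Of 5 mesothelial markers, which mark the liver capsule, 1 rose, *Lrrn4* (log2 fold change 1.97), and the list's sum, led by *Gpm6a*, was 9.98 to 21.9 CPM with vehicle and 19.9, 24.3, 19.7 and 16.9 CPM with INT-767. Only 2 of 4 vascular smooth muscle markers were tested and 0 were called, with a sum, led by *Smtn*, of 5.58 to 24.2 CPM and 13.6, 2.63, 10.8 and 3.15 CPM. Of 5 platelet and megakaryocyte markers, 2 were tested and 0 called, and *Itga2b* was the most abundant at 4.01 ± 0.594 CPM (SD, n = 7) and 2.89 ± 1.20 CPM (SD, n = 4).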
